A study of Schmidtea mediterranea with 24 samples.

Results

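Adult planarians in which *hox1* was silenced by RNAi were compared with control RNAi animals, 8 of the 24 RNA-seq libraries of the study. The comparison covered 15253 of the 22197 genes in the expression table, those with at least 0.5 transcripts per 1000000 transcripts (TPM) in at least 4 of these 8 libraries. TPM divides the reads of a gene by transcript length and scales every library to the same total, so levels can be compared between genes and between libraries. Of the tested genes 14377 reached 0.5 TPM in all 8 libraries and 168 in exactly 4, and 216 genes that reached it in 3 were left out. The animals were asexual adult *Schmidtea mediterranea* of the clonal CIW4 line. *hox1* RNAi animals were fed *hox1* dsRNA 7 times and then starved for 5 days, and control RNAi animals were fed *unc-22* dsRNA, which matches a nematode gene, on the same schedule. Each group has 4 libraries, each made from a pool of 3 whole animals, so the SDs below are spreads between pools. The SEs of log2 changes come from 1 model of all 24 libraries, with the spread estimated over all RNAi groups. The other groups of the study were fed dsRNA against *hox3a*, *hox3b*, *lox5b* or *post2b* in the same way, with 4 libraries each, and shared the control libraries.

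Hox genes encode homeodomain transcription factors that give positional identity along the anterior-posterior axis of bilaterian embryos, and *hox1* belongs to the anterior class. Asexual planarians reproduce by fission, in which the tail end anchors and tears off and both pieces regenerate. The study asked which transcripts depend on Hox genes that fission requires. In whole-animal RNA, fewer cells of a type and less RNA per cell cannot be told apart.

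2 transcripts define the comparison, *hox1*, which was the RNAi target, and *gm2a*, the transcript that the study followed as an effector of *hox1*. The gene-specific ends of the primers with which the study cloned both for dsRNA are shown 5′ to 3′, without vector overhangs and with no base set apart in capitals. Each is 23 bases long.
hox1 forward: atttcaacaaacaagcattggtc
hox1 reverse: acaataaatgtttcgaccttggt
gm2a forward: caagtttttggtggtactctcat
gm2a reverse: accactggatatgaattttgcaa
The *hox1* transcript is not paired with a gene ID in the tables used here, so its own loss was not analysed here.

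The 8 libraries were of like depth. Low TPM values were whole multiples of the value of 1 read, so reads per gene could be recovered from the table, 10019423 to 11225216 in the *hox1* RNAi libraries and 9793922 to 11467052 in the control RNAi libraries. Fewer genes had any signal after *hox1* RNAi than after control RNAi, and this was not particular to *hox1* RNAi. The 4 *hox1* RNAi libraries listed 17314, 17122, 17132 and 17087 genes above 0, against 17843, 17685, 17512 and 17673 in the 4 control RNAi libraries. The groups did not overlap, although the control library with the fewest genes was also the one with the fewest reads of all 8. The mean difference was -514.5 genes (exact two-sided permutation test, p = 0.0286, the smallest that the 70 splits of 4 against 4 allow). Within the *hox1* RNAi group, replicate 1 stood apart on the first principal component of the 8 libraries, which held 41.6% of the variance. It lay at -1.51, the other *hox1* RNAi libraries at -23.2, -23.2 and -16.2, and the control RNAi libraries at 24.4, 14.5, 11.9 and 13.4. Pearson's r across genes was 0.990 to 0.993 between libraries of the *hox1* RNAi group and 0.991 to 0.993 between those of the control RNAi group.

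More transcripts fell than rose after *hox1* RNAi. On TPM as deposited, 240 of the 15253 tested genes fell (1.57%) and 44 rose (0.288%). A gene was called when it changed by at least 1.5-fold with an adjusted p under 0.05 in limma on log2(TPM + 0.5), with Benjamini-Hochberg adjustment over all tested genes. The median log2 change was -1.04 over the fallen genes and 0.67 over the risen genes, beside -0.06 over all tested genes. At least a 2-fold change was seen in 124 of the fallen and 4 of the risen genes, and a fall of at least 4-fold in 4 genes. The 4 *hox1* RNAi libraries lay entirely below the 4 control libraries for 227 of the 240 fallen genes, beside 9.41% of all tested genes, and entirely above them for 39 of the 44 risen genes, beside 6.03%. Of the fallen genes, 22 passed the filter on low values only through the control libraries and so had to differ.

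Rescaling moved the balance of calls. TPM fixes the total of each library, so the libraries were also divided by a factor from the median of ratios over 14911 genes. The factors were 1.081, 1.018, 0.988 and 1.031 in *hox1* RNAi and 1.096, 1.077, 1.049 and 1.058 in control RNAi, and the groups overlapped (exact two-sided permutation test, p = 0.1429). After rescaling 206 genes fell (1.35%) and 62 rose (0.406%), and the median log2 change of all tested genes was -0.01. All 206 genes were among the 240, and the 44 risen genes were among the 62, so the scale decided the call of 34 fallen and 18 risen genes. The share of calls that were falls was 84.5% as deposited and 76.9% after rescaling. Without the fold cutoff the balance turned after rescaling only. At an adjusted p under 0.05 in limma with Benjamini-Hochberg adjustment, 477 genes (3.13%) were lower and 350 (2.29%) higher in *hox1* RNAi as deposited. After rescaling 393 (2.58%) were lower and 529 (3.47%) higher. Single libraries also moved the counts. As deposited, 395 genes fell and 60 rose without *hox1* RNAi replicate 1, 152 fell and 19 rose without *hox1* RNAi replicate 2, and 157 fell and 37 rose without control RNAi replicate 1. After rescaling 276 fell and 104 rose, 138 fell and 24 rose, and 141 fell and 40 rose without these 3 libraries, and without control RNAi replicate 4 187 fell and 41 rose. Without *hox1* RNAi replicate 1, 229 of the 240 fallen genes were still called.

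**Figure D1:**
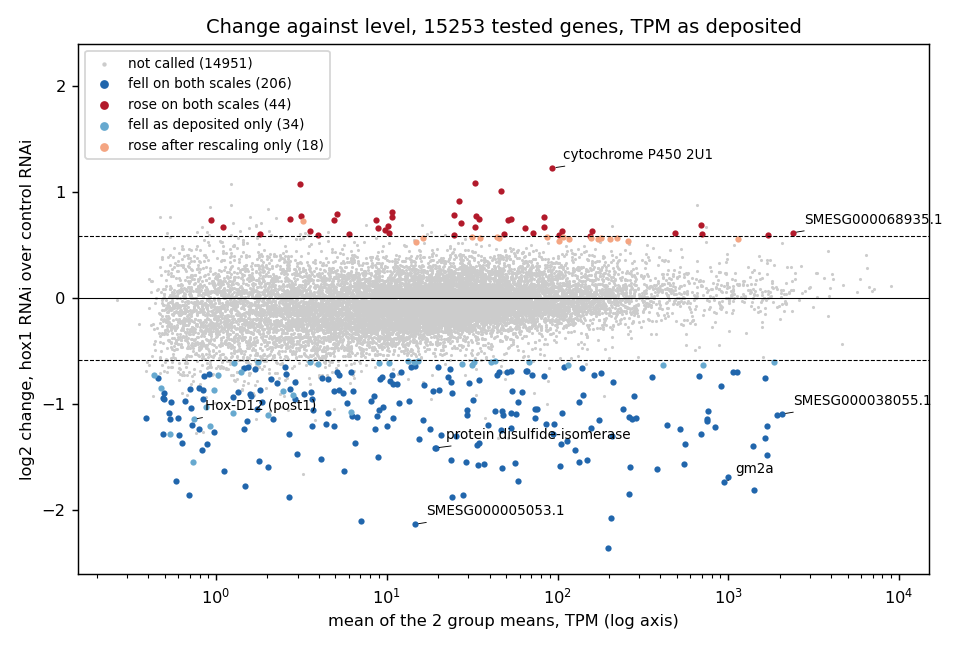
The log2 change of each of the 15253 tested genes (*hox1* RNAi over control RNAi, TPM as deposited) is plotted against its mean level on a log axis in TPM, and dashed lines mark 1.5-fold. Fallen genes run from under 1 TPM to over 1000 TPM, while 4 risen genes reach a 2-fold change.

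Falls were spread over all levels and were most frequent among the most abundant transcripts. Of the tested genes with a control mean of at least 1000 TPM, 18 of 176 fell (10.2%). The share was 43 of 1437 (2.99%) at 100 to 1000 TPM, 83 of 8063 (1.03%) at 10 to 100 TPM, 84 of 4794 (1.75%) at 1 to 10 TPM and 12 of 783 (1.53%) under 1 TPM. The share of rises was also highest there, but it rested on 2 of the 176 genes (1.14%), beside 0.288% of all tested genes. After rescaling 17 of the 176 fell (9.66%) and 2 rose. The 240 fallen genes together held 2.14, 2.24, 2.46 and 2.41% of all TPM in the *hox1* RNAi libraries, against 4.85, 4.65, 5.23 and 5.43% in the control RNAi libraries. These sums describe genes chosen by this contrast and were not tested. The 18 most abundant fallen genes made up most of that, with 1.29 to 1.63% in *hox1* RNAi and 2.93 to 3.56% in control RNAi.

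The ganglioside GM2 activator *gm2a* (SMESG000000730.1) was far lower in every *hox1* RNAi library than in any control RNAi library. In mammals this lysosomal protein lifts the ganglioside GM2 out of membranes and presents it to beta-hexosaminidase. It had 404, 388, 534 and 439 TPM in *hox1* RNAi, against 1289, 1381, 1439.9 and 1722 TPM in control RNAi. The highest *hox1* RNAi library stayed far below the lowest control library. The study picked *gm2a* from genes that changed in these same libraries, and then by a fission screen, so its fall was part of that choice. The p-values and alternatives given next for *gm2a* describe this fall and are not independent evidence for it. The log2 change was -1.73 ± 0.13 (SE) as deposited and -1.67 ± 0.14 after rescaling, with adjusted p = 2.69e-09 and 2.76e-08 (limma with Benjamini-Hochberg adjustment), on 8745 reads in *hox1* RNAi and 30134 in control RNAi. The call held in all 18 alternatives that kept the cutoffs, with adjusted p from 1.31e-09 to 1.07e-06.

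The rest of the lysosomal and ganglioside list did not follow *gm2a* to the same extent. Of its 8 members, all tested, *gm2a* was the only call, and the list's median log2 change was -0.16, beside -0.06 over all tested genes. 2 further members were named after their values were seen. Neutral ceramidase (SMESG000003228.1), which breaks down ceramide, averaged 83.8 ± 2.34 TPM after *hox1* RNAi and 112 ± 4.34 TPM after control RNAi (SD over 4 libraries each), a log2 change of -0.41 ± 0.05 (SE) that passed the p cutoff but not 1.5-fold (limma, Benjamini-Hochberg adjusted p = 1.02e-05). The beta-hexosaminidase beta subunit (SMESG000002681.1), whose enzyme degrades GM2, averaged 38.3 ± 3.73 TPM after *hox1* RNAi and 45.9 ± 2.23 TPM after control RNAi (SD over 4 libraries each) and was not called (limma, Benjamini-Hochberg adjusted p = 0.0743). The other 5 members, among them a granulin precursor and a proton ATPase subunit, were not called either.

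Of the fallen transcripts, 4 were named for their abundance, and none of them has a product name. SMESG000038055.1 had 1045, 1465, 1459 and 1335 TPM in *hox1* RNAi, against 2629.7, 2572, 3106 and 2893 TPM in control RNAi. SMESG000035313.1 had 1057, 1090.0, 1439 and 1316 TPM in *hox1* RNAi, against 2438, 2353, 2731 and 2981 TPM in control RNAi. SMESG000014241.1 had 817, 1014, 1226 and 1064 TPM in *hox1* RNAi, against 2177, 2108, 2542 and 2587 TPM in control RNAi. The groups were well apart in all 3 of these genes, and *hox1* RNAi replicate 1 had the lowest value each time. Their log2 changes were -1.09, -1.10 and -1.20, each with an SE of 0.10, and the largest adjusted p was 4.42e-08 (limma with Benjamini-Hochberg adjustment). The fourth, SMESG000066355.1, averaged 1469.7 ± 184 TPM after *hox1* RNAi and 2225 ± 237 TPM after control RNAi (SD over 4 libraries each), just past 1.5-fold, and lost its call after rescaling (log2 change -0.60 as deposited and -0.54 rescaled) and without each of *hox1* RNAi replicates 1 and 2 and control RNAi replicates 3 and 4. Among the other abundant fallen transcripts, named after their values were seen, the deepest falls were those of SMESG000034921.1, with 631 ± 149 TPM after *hox1* RNAi and 2182 ± 294 TPM after control RNAi, and of SMESG000073667.1, with 478 ± 99.5 TPM after *hox1* RNAi and 1518 ± 224 TPM after control RNAi (SD over 4 libraries each).

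**Figure D2:**
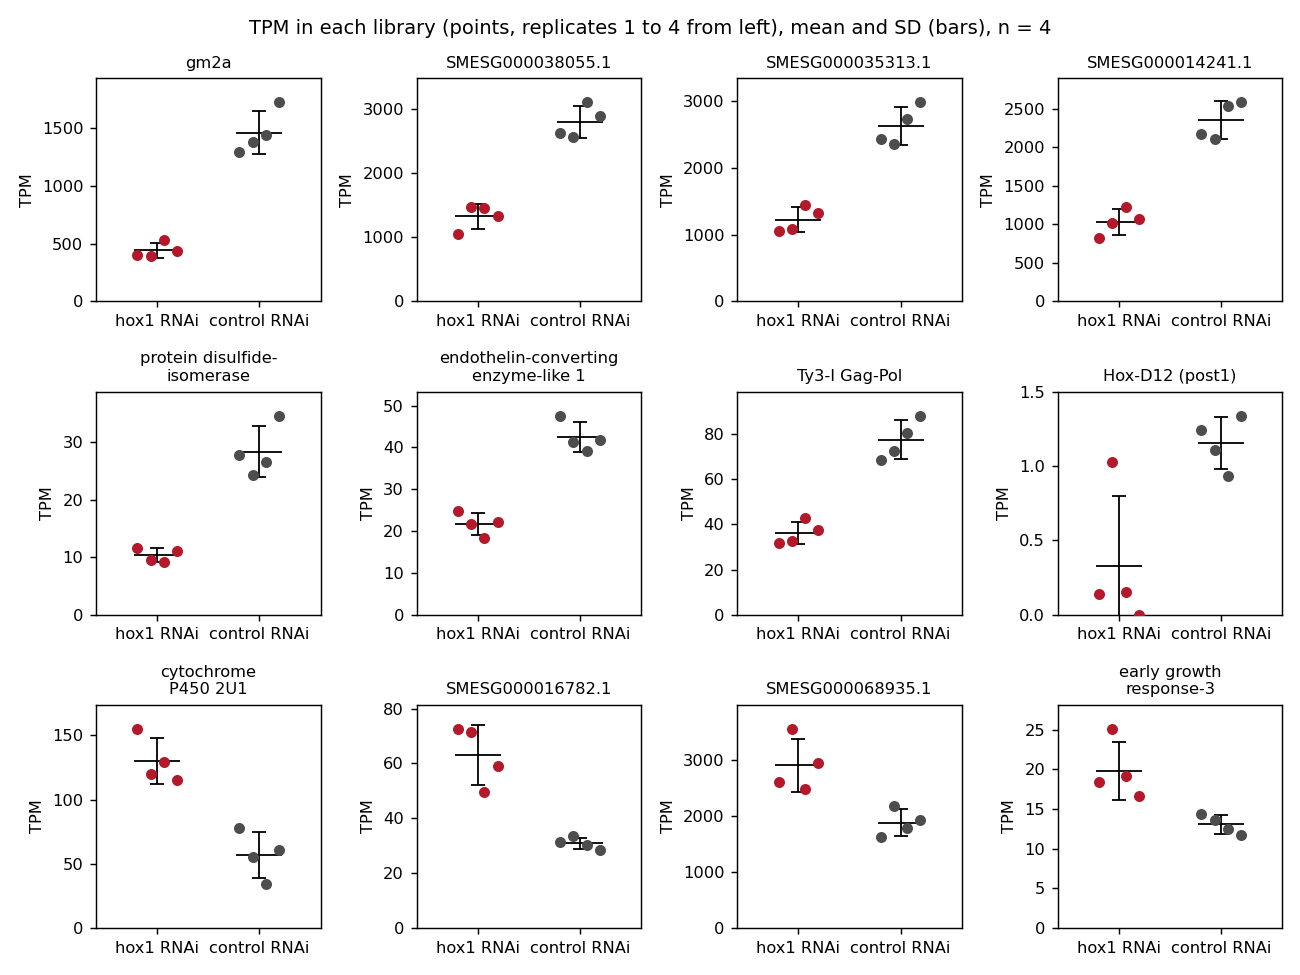
TPM of 12 genes is plotted in each *hox1* RNAi library (red, left) and each control RNAi library (grey, right), with the mean and SD over 4 libraries. *gm2a* and the 3 abundant transcripts beside it show no overlap between groups, while Hox-D12 (*post1*) overlaps through 1 *hox1* RNAi library.

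The largest fold changes belonged to unnamed genes at lower levels. SMESG000005053.1 had 5.96, 4.39, 5.61 and 4.62 TPM in *hox1* RNAi, against 21.1, 22.2, 26 and 27.1 TPM in control RNAi. Its values were tight in both groups, with a log2 change of -2.13 ± 0.18 (SE; limma, Benjamini-Hochberg adjusted p = 1.67e-08). SMESG000052591.1, SMESG000042396.1 and SMESG000004912.1 fell by a log2 change of -1.87, -1.85 and -1.84, with 8.74 to 11.9, 9.67 to 15.1 and 96.1 to 136 TPM in *hox1* RNAi, against 34.1 to 44.5, 38.7 to 51.9 and 359 to 492 TPM in control RNAi. SMESG000034925.1 averaged 0.894 ± 0.689 TPM after *hox1* RNAi and 4.46 ± 1.75 TPM after control RNAi (SD over 4 libraries each) on 30 and 156 reads, and its groups did not overlap either.

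3 of the 8 largest falls sat among neighbouring gene IDs whose levels varied widely between the control libraries. SMESG000043423.1 had 85.9, 20.9, 67.4 and 64.8 TPM in *hox1* RNAi, against 204, 429, 608 and 104 TPM in control RNAi. SMESG000043422.1 had 96.3, 32, 87.5 and 69.9 TPM in *hox1* RNAi, against 215, 402, 627 and 112 TPM in control RNAi. Control RNAi replicate 4 came close to the *hox1* RNAi range in both genes. SMESG000043391.1 had 1.67, 0.985, 2.19 and 3.89 TPM in *hox1* RNAi, against 6.65, 16, 20.6 and 4.67 TPM in control RNAi, and averaged 122 TPM in *hox3a* RNAi. The log2 changes were -2.35 ± 0.64, -2.07 ± 0.58 and -2.10 ± 0.43 (SE), with adjusted p = 0.0337, 0.0371 and 0.0052 (limma with Benjamini-Hochberg adjustment). The calls of SMESG000043423.1 and SMESG000043422.1 were lost in 8 of 18 alternatives, including without any 1 of *hox1* RNAi replicates 2 to 4 or control RNAi replicates 1 to 3, and that of SMESG000043391.1 was lost in a model of the recovered reads. Their neighbour SMESG000043411.1, named after its values were seen, averaged 56 ± 12.7 TPM after *hox1* RNAi and 154 ± 65.7 TPM after control RNAi (SD over 4 libraries each), while *hox3a* RNAi averaged 1337 TPM and *lox5b* RNAi 28.7 TPM.

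Product names were at hand for 510 of the tested genes (3.34%), and 9 of these were called on at least 1 scale (1.76%), 7 of them as falls, beside 302 of all tested genes (1.98%). The protein disulfide-isomerase SMESG000001159.1, an enzyme of the kind that forms and rearranges disulfide bonds in the endoplasmic reticulum, had 11.6, 9.54, 9.13 and 11.1 TPM in *hox1* RNAi, against 27.8, 24.3, 26.6 and 34.6 TPM in control RNAi. The groups were apart, with a log2 change of -1.41 ± 0.21 (SE; limma, Benjamini-Hochberg adjusted p = 0.000103). It was the only call among 17 tested genes of the protein folding and secretory list, whose median log2 change was -0.08. The transcript was low in each of the other Hox RNAi groups as well, with means of 12.7 TPM in *hox3a*, 15.3 TPM in *hox3b*, 8.59 TPM in *lox5b* and 13.5 TPM in *post2b* RNAi, and *hox1* RNAi differed from none of them (limma, Benjamini-Hochberg adjusted p of 0.176 to 0.614).

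3 genes named as endothelin-converting enzymes fell. They were the only calls among 19 tested proteases, inhibitors and secreted proteins (list median -0.06), beside 1.57% of all tested genes that fell. Another gene of this name, SMESG000003218.1, was too low to be tested, with 0.0595 to 0.278 TPM in *hox1* RNAi and 0.215 to 0.623 TPM in control RNAi. Endothelin-converting enzymes are membrane zinc metallopeptidases that in mammals cut peptide hormone precursors. The endothelin-converting enzyme-like SMESG000003216.1 had 24.7, 21.7, 18.3 and 22.2 TPM in *hox1* RNAi, against 47.6, 41.4, 39.1 and 41.8 TPM in control RNAi. SMESG000003235.1 had 7.24, 5.14, 4.19 and 6.44 TPM in *hox1* RNAi, against 14.4, 13.2, 10.9 and 10.8 TPM in control RNAi. SMESG000003230.1 had 1.93, 1.62, 1.44 and 1.1 TPM in *hox1* RNAi, against 3.9, 2.58, 2.5 and 3.17 TPM in control RNAi. In all 3 the groups did not overlap, and log2 changes were -0.96, -1.05 and -0.80 with adjusted p = 1.86e-06, 0.00967 and 0.022 (limma with Benjamini-Hochberg adjustment). The last call rested on 99 and 205 reads and was lost without any 1 of *hox1* RNAi replicates 2 to 4 or control RNAi replicates 1 and 4. Their gene IDs lie near each other, and reads shared between near-identical copies could not be told apart here, so the 3 values may not be independent. In *lox5b* RNAi the means were 18, 2.67 and 0.958 TPM, and the difference from *hox1* RNAi passed the p cutoff for SMESG000003235.1 (limma, Benjamini-Hochberg adjusted p = 0.00279) but not for SMESG000003216.1 (0.0732) or SMESG000003230.1 (0.084). SMESG000003235.1 was also lower than in control RNAi in *hox3a* and *post2b* RNAi (log2 change -0.81 in both; limma, Benjamini-Hochberg adjusted p = 0.015 and 0.0126). Neither it nor SMESG000003230.1 differed past the cutoff between *hox1* RNAi and *hox3a*, *hox3b* or *post2b* RNAi (limma, Benjamini-Hochberg adjusted p of 0.253 to 0.569), whereas SMESG000003216.1 was lower in *hox1* RNAi than in all 3 (adjusted p of at most 0.00134).

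A Ty3-I Gag-Pol polyprotein, a retrotransposon product (SMESG000003701.1), had 31.8, 32.8, 42.7 and 37.4 TPM in *hox1* RNAi, against 68.8, 72.7, 80.5 and 88.3 TPM in control RNAi. The groups were apart, with a log2 change of -1.09 ± 0.11 (SE; limma, Benjamini-Hochberg adjusted p = 1.12e-07). The other 5 tested transposon proteins were not called, and the list's median log2 change was 0.11.

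Among Hox genes, only *post1* and *post2a* are paired with gene IDs here. *post1* (SMESG000003389.1, named Hox-D12), a posterior-class Hox gene, was detected in a handful of reads. It had 0.139, 1.03, 0.149 and 0 TPM in *hox1* RNAi, against 1.24, 1.11, 0.932 and 1.34 TPM in control RNAi. These values stand for 1, 7, 1 and 0 reads in *hox1* RNAi, against 9, 8, 6 and 10 reads in control RNAi, and the library at 0 allows a level of up to 0.459 TPM (3 reads; counting error only). *hox1* RNAi replicate 2 lay within the control range. The call was lost after rescaling (log2 change -1.14 as deposited with adjusted p = 0.0455, and -1.08 rescaled with adjusted p = 0.0579; Benjamini-Hochberg adjustment of limma p-values). It was lost in 12 of 17 alternatives in all. *post2a* (SMESG000054107.1) averaged 8.31 ± 0.93 TPM after *hox1* RNAi and 9.84 ± 0.889 TPM after control RNAi (SD over 4 libraries each) and was not called (limma, Benjamini-Hochberg adjusted p = 0.42). Of 15 tested transcription factors 1 was called on each scale, *post1* as deposited and early growth response-3 after rescaling. The gene named pre-B-cell leukemia transcription factor (SMESG000001913.1), whose family members bind DNA together with Hox proteins, is added after its values were seen. It averaged 33.3 ± 2.65 TPM after *hox1* RNAi and 40.0 ± 3.86 TPM after control RNAi (SD over 4 libraries each; limma, Benjamini-Hochberg adjusted p = 0.085).

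Among the risen transcripts cytochrome P450 2U1 had the largest fitted change on the log2(TPM + 0.5) scale, while by the ratio of group means it rose 2.27-fold and the less abundant SMESG000016788.1 rose 2.32-fold. In humans this enzyme hydroxylates fatty acids. SMESG000003402.1 had 155, 120.1, 129 and 115 TPM in *hox1* RNAi, against 78.1, 54.9, 34.4 and 60.7 TPM in control RNAi. All 4 *hox1* RNAi libraries were above the control range, with a log2 change of 1.23 ± 0.23 (SE; limma, Benjamini-Hochberg adjusted p = 0.00229), and the call held in the same 18 alternatives. It was the only call among 16 tested lipid metabolism genes, whose median log2 change was -0.06. Early growth response-3 (SMESG000000959.1), a zinc finger protein of a family induced early by growth signals in vertebrates, had 18.4, 25.1, 19.2 and 16.6 TPM in *hox1* RNAi, against 14.4, 13.6, 12.5 and 11.7 TPM in control RNAi. The groups did not overlap, and the log2 change of 0.57 as deposited fell just short of 1.5-fold, while 0.63 after rescaling was called (limma, Benjamini-Hochberg adjusted p = 0.024). As deposited, early growth response-3 was also at 0.83 in *hox3b*, 0.71 in *lox5b*, 0.26 in *post2b* and -0.04 in *hox3a* RNAi over control RNAi.

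The most abundant risen transcripts changed by about 1.5-fold. SMESG000068935.1 had 2611, 3554, 2489 and 2953 TPM in *hox1* RNAi, against 1618, 2176, 1787 and 1936 TPM in control RNAi. SMESG000007197.1 had 1781, 2259, 2130.4 and 2031 TPM in *hox1* RNAi, against 1009, 1395, 1418 and 1668 TPM in control RNAi. SMESG000051915.1 had 735, 957, 893 and 811 TPM in *hox1* RNAi, against 451, 604, 638 and 545 TPM in control RNAi. The groups did not overlap in these 3 genes, and the log2 changes were 0.62, 0.60 and 0.61 with adjusted p = 0.00193, 0.00348 and 0.0105 (limma with Benjamini-Hochberg adjustment). All 3 calls were lost without *hox1* RNAi replicate 2 and without control RNAi replicate 1, and those of SMESG000007197.1 and SMESG000051915.1 also without *hox1* RNAi replicate 3.

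Many risen genes had neighbouring gene IDs. Of the 44 risen genes 15 (34.1%) had another risen gene within 10 ID numbers, against 1.15% of all tested genes, and of the 240 fallen genes 85 (35.4%) had another fallen gene that near, against 6.39% of all tested genes. The distance of 10 was chosen after the values were seen, and ID numbers are not coordinates. 13 of the risen genes lay in 2 runs. In the run from SMESG000016772.1 to SMESG000016789.1 all 8 tested genes were higher in *hox1* RNAi, 7 of them called as deposited and all 8 after rescaling, with a median log2 change of 0.76 as deposited. Within it, SMESG000016782.1 had 72.6, 71.3, 49.5 and 58.9 TPM in *hox1* RNAi, against 31.2, 33.4, 30.2 and 28.4 TPM in control RNAi, and the groups were far apart (log2 change 1.01 ± 0.12, SE; limma, Benjamini-Hochberg adjusted p = 7.85e-06). SMESG000016778.1 had 34.9, 36.5, 25.2 and 28.7 TPM in *hox1* RNAi, against 20.3, 16.9, 14.3 and 20.3 TPM in control RNAi, again without overlap. SMESG000016788.1 averaged 4.31 ± 0.563 TPM after *hox1* RNAi and 1.86 ± 0.756 TPM after control RNAi (SD over 4 libraries each) and lost its call without *hox1* RNAi replicate 2, *hox1* RNAi replicate 3 or control RNAi replicate 2.

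The other risen run, from SMESG000051904.1 to SMESG000051921.1, had 6 called genes among 11 tested and 7 after rescaling, and its summed mean was 3265 TPM after *hox1* RNAi and 2159 TPM after control RNAi. Outside these runs lay other large rises. SMESG000035325.1 averaged 45.5 ± 13.3 TPM after *hox1* RNAi and 20.6 ± 3.66 TPM after control RNAi and was lost without *hox1* RNAi replicate 3, and SMESG000030155.1 averaged 6.59 ± 1.66 TPM after *hox1* RNAi and 3.56 ± 0.863 TPM after control RNAi (SD over 4 libraries each). The fallen genes formed 10 runs of at least 3 calls, 35 genes among the 50 tested in them, and the summed mean was lower in *hox1* RNAi in 9 of the 10. The run with the most calls, from SMESG000072791.1 to SMESG000072807.1, had 5 called and 7 lower genes among 7 tested, with a summed mean of 332 TPM after *hox1* RNAi and 811 TPM after control RNAi. The exception, from SMESG000016301.1 to SMESG000016307.1, summed to 2805 TPM after *hox1* RNAi and 2445 TPM after control RNAi. All these runs, risen and fallen, were built around genes called in these libraries. Their counts and sums therefore lean to the called direction by that choice and were not tested. Where such neighbours are similar copies, reads that fit several of them make single values uncertain, and this was not tested.

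**Figure D3:**
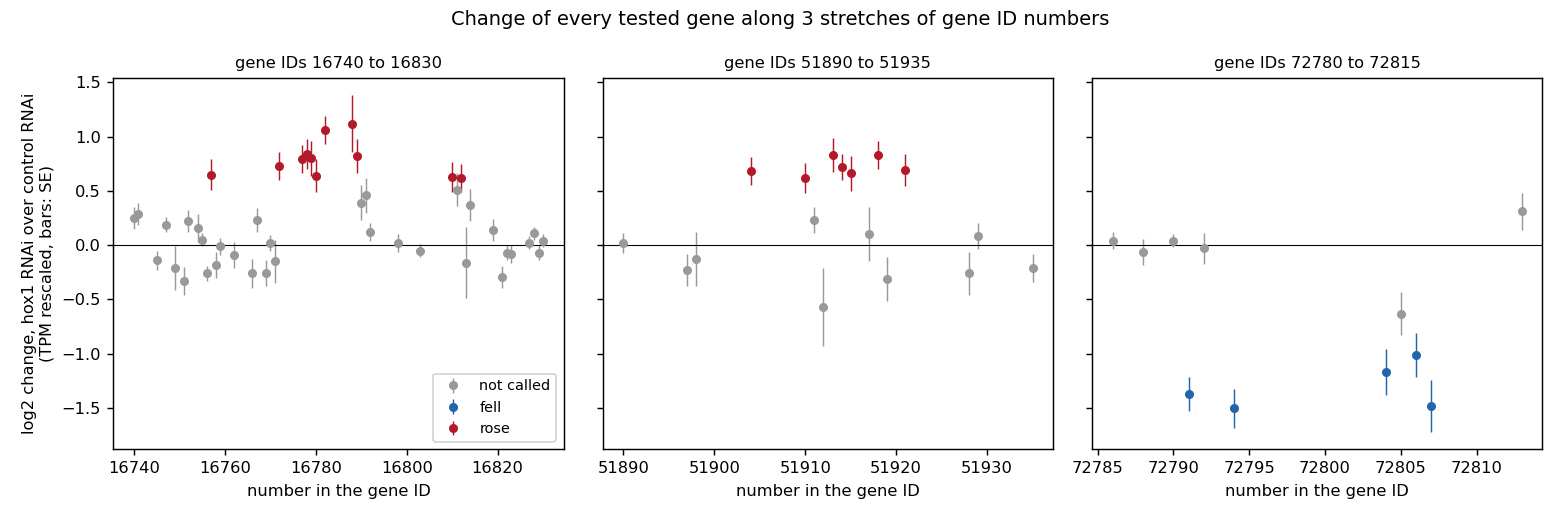
The log2 change after rescaling (*hox1* RNAi over control RNAi, bars for SE) of every tested gene is plotted along 3 stretches of gene ID numbers, which are names and not genome positions. Called genes sit together, with all 8 tested genes from SMESG000016772.1 to SMESG000016789.1 raised and 5 called genes from SMESG000072791.1 to SMESG000072807.1 lowered.

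Most named gene groups held no call. Of 17 lists built from product names, 11 had 0 calls on either scale among 204 tested genes, beside 1.98% of all tested genes called on at least 1 scale. The 11 lists were set apart because they held no call, so the 0 follows from that choice, which also limits the range of changes. Their list medians lay between -0.14 and 0.04 and single log2 changes between -0.57 and 0.49 as deposited. These were the lists for cilia, muscle, neuronal receptors and channels, axis and growth signalling, ribosome and translation, mitochondrion, TRAF and Mx immune proteins, ubiquitin and proteasome, RNA processing, solute transport and redox enzymes. At an unadjusted p under 0.05 in limma, 46 of the 204 genes passed (22.5%), beside 25.4% of all tested genes, and voom on the recovered reads called 0 of them. By list, 7 of 16 cilium genes, 3 of 11 muscle genes, 3 of 37 neuronal genes and 2 of 11 axis genes passed.

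The effectors that the study assigned to the other Hox genes were not called after *hox1* RNAi. Of 23 such genes with IDs 22 were tested, 4 for *hox3a*, 3 for *lox5b* and 15 for *post2b*, and the carbonic anhydrase gene *ca7* counts for both *hox3a* and *hox3b*. On either scale, and by voom on the recovered reads, 0 of the 22 were called. Of all tested genes 1.98% were called on at least 1 scale, so 0 calls among so few genes says little. The same holds for the marker counts below. The study chose these effectors with the help of these libraries. In limma 3 of the 4 *hox3a* effectors, 0 of 1 for *hox3b* (*ca7*), 1 of 3 for *lox5b* and 1 of 15 for *post2b* had an unadjusted p under 0.05, beside 25.4% of all tested genes, and the *hox3a* list had a median log2 change of -0.48 on 10.7 to 12.5 summed TPM in *hox1* RNAi and 13.7 to 16 in control RNAi. Markers of the marginal adhesive gland, with which planarians hold on to a surface, were detected in every library. The 7 anchor cell markers, such as *lmnAC* and *ifb*, summed to 556 to 686 TPM in *hox1* RNAi and 575 to 729 TPM in control RNAi, and 0 of 7 were called, with log2 changes from -0.23 to 0.19. Of the 3 viscid gland markers 0 were called. *rcn-1*, which the study also assigns to other cell clusters, averaged 1006 ± 76.3 TPM in *hox1* RNAi, against 1109 ± 75.4 TPM in control RNAi, *syt1* 14.9 ± 3.56 TPM, against 16.9 ± 1.93 TPM, and *fer3l2* 7.33 ± 0.984 TPM, against 7.79 ± 1.16 TPM (SD over 4 libraries each). *eve*, which the study assigns to parenchymal clusters 6 and 10, averaged 3.91 ± 0.475 TPM after *hox1* RNAi and 3.45 ± 0.696 TPM after control RNAi (SD over 4 libraries each). Of all 11 marker genes, *eve* among them, 0 had an unadjusted p under 0.05 in limma.

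The same genes were then read in the other Hox RNAi groups, which share the control libraries, so the changes are given side by side only. Over the 240 genes that fell in *hox1* RNAi, the median log2 change over control RNAi was -1.04 for *hox1*, -0.30 for *hox3a*, -0.30 for *hox3b*, -1.04 for *lox5b* and -0.35 for *post2b*, and over all tested genes it was -0.06, -0.14, -0.06, -0.15 and -0.15 in the same order. Over the 44 risen genes it was 0.67 for *hox1*, 0.31 for *hox3a*, 0.29 for *hox3b*, 0.94 for *lox5b* and 0.40 for *post2b*. The summed shares were not tested, since genes chosen for low values in these *hox1* RNAi libraries favour a low sum there and the 18 most abundant genes weigh most. The 240 fallen genes held 2.14 to 2.46% of TPM in *hox1* RNAi, 3 to 3.97% in *lox5b* RNAi, and 4.76 to 5.84% over the *hox3a*, *hox3b* and *post2b* libraries, against 4.65 to 5.43% in control RNAi. For the 44 risen genes the summed TPM in *hox1* RNAi (8288 to 10239.7) and *lox5b* RNAi (8363 to 11227) overlapped, and control RNAi had 5186 to 6181.

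**Figure D4:**
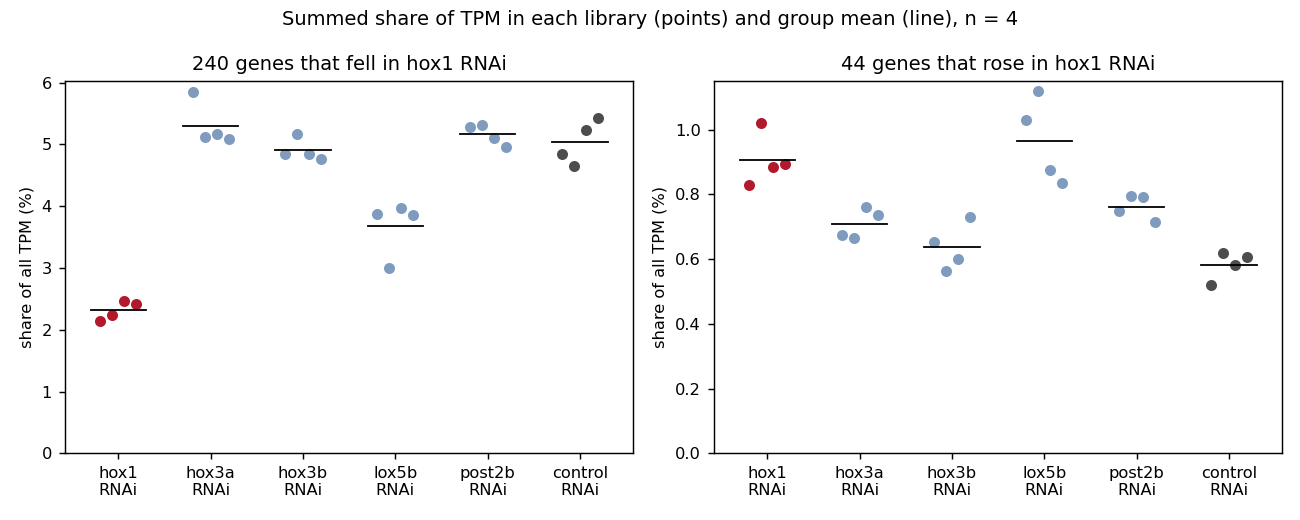
The share of all TPM (%) held by the 240 genes that fell (left) and the 44 that rose (right) in *hox1* RNAi is plotted for each library of the 6 groups, with a line at the mean of 4 libraries. The genes were chosen by the *hox1* RNAi and control RNAi libraries, and in the left panel *lox5b* RNAi (3 to 3.97%) lies between *hox1* RNAi and the rest.

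Direct tests split the fallen genes. Compared with the other groups at an adjusted p under 0.05 (limma with Benjamini-Hochberg adjustment over all tested genes), the 240 genes were lower in *hox1* RNAi than in *hox3a* RNAi for 135, than in *hox3b* RNAi for 119, than in *post2b* RNAi for 124 and than in *lox5b* RNAi for 61. Over all tested genes the shares lower in *hox1* RNAi were 2.09%, 2.03%, 2.07% and 7.98% in that order. In the other direction, 50 of the 240 exceeded their *lox5b* RNAi level after *hox1* RNAi, beside 20.7% of all tested genes, a share close to that background. 1 of the 240 exceeded its *post2b* RNAi level (background 9.33%), and 0 exceeded that of *hox3a* (5.66%) or *hox3b* RNAi (1.59%). After rescaling, of the 206 fallen genes 134 were lower in *hox1* than in *hox3a* RNAi, 118 than in *hox3b*, 128 than in *post2b* and 66 than in *lox5b* RNAi, with backgrounds of 2.8%, 2.26%, 4.33% and 14.6%. Rescaled in the other direction were 33 genes against *lox5b* RNAi (background 13.7%) and 0 against each of the other groups (1.19% for *hox3a*, 1.3% for *hox3b* and 2.48% for *post2b*). These tests use the *hox1* RNAi libraries by which the 240 genes were chosen, so the counts describe the list and do not stand as independent support. Lower in *hox1* RNAi than in control RNAi and in each of the other 4 groups were 57 genes, beside 0.479% of all tested genes for the 4 Hox RNAi groups alone. After rescaling there were 61 such genes (background 0.511%), with all 57 among them.

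These 57 genes were mostly abundant. Their median control level was 185 TPM, against 10.8 TPM for the other 183 fallen genes. A control mean of 100 TPM was reached by 36 of 57 (63.2%), against 25 of 183 (13.7%), beside 1613 of all 15253 tested genes. The 57 also had to pass the adjusted p cutoff against 4 further groups, and whether that favours abundant genes was not tested. They held 1.33, 1.52, 1.77 and 1.62% of TPM in *hox1* RNAi, against 3.41, 3.34, 3.81 and 4.12% in control RNAi. Their median log2 change over control RNAi was -1.23 for *hox1*, 0.06 for *hox3a*, 0.03 for *hox3b*, -0.31 for *lox5b* and 0.10 for *post2b*. The 57 were chosen as lower in *hox1* RNAi than in all these groups. The direction of the shares and medians follows from that choice and is no separate support. They included *gm2a*, the Ty3-I Gag-Pol polyprotein SMESG000003701.1 and the 3 deeply falling abundant transcripts SMESG000038055.1, SMESG000035313.1 and SMESG000014241.1.

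*gm2a* showed an intermediate level in *lox5b* RNAi, as did some other named genes. Its mean was 441 ± 65.3 TPM in *hox1* RNAi, 1292 TPM in *hox3a*, 1235 TPM in *hox3b*, 839 TPM in *lox5b* and 1372 TPM in *post2b* RNAi, against 1458 ± 187 TPM in control RNAi (SD over 4 libraries each). *lox5b* RNAi libraries had 810.4, 609, 1014 and 923 TPM, all above the highest *hox1* RNAi library and below the lowest control library. The log2 difference of *hox1* RNAi from *lox5b* RNAi was -0.91, and from the other 3 groups it was -1.55 for *hox3a*, -1.49 for *hox3b* and -1.64 for *post2b* RNAi, with adjusted p of at most 3.99e-05 (limma with Benjamini-Hochberg adjustment). The next levels above, *hox3b*, *hox3a*, *post2b* and control RNAi, overlapped in their libraries, and *hox3a*, *hox3b* and *post2b* RNAi did not differ from control RNAi past the cutoff (limma, Benjamini-Hochberg adjusted p of 0.271 to 0.655). SMESG000052591.1 showed such a step too, with 8.74 to 11.9 TPM in *hox1*, 14.5 to 25.5 TPM in *lox5b* and 34.1 to 44.5 TPM in control RNAi. SMESG000005053.1 averaged 5.15, 8.18 and 24.1 TPM in that order. For SMESG000034921.1, named after its values were seen, no such step appeared. It averaged 2498 TPM in *lox5b* RNAi, against 631 ± 149 TPM after *hox1* RNAi and 2182 ± 294 TPM after control RNAi (SD over 4 libraries each).

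**Figure D5:**
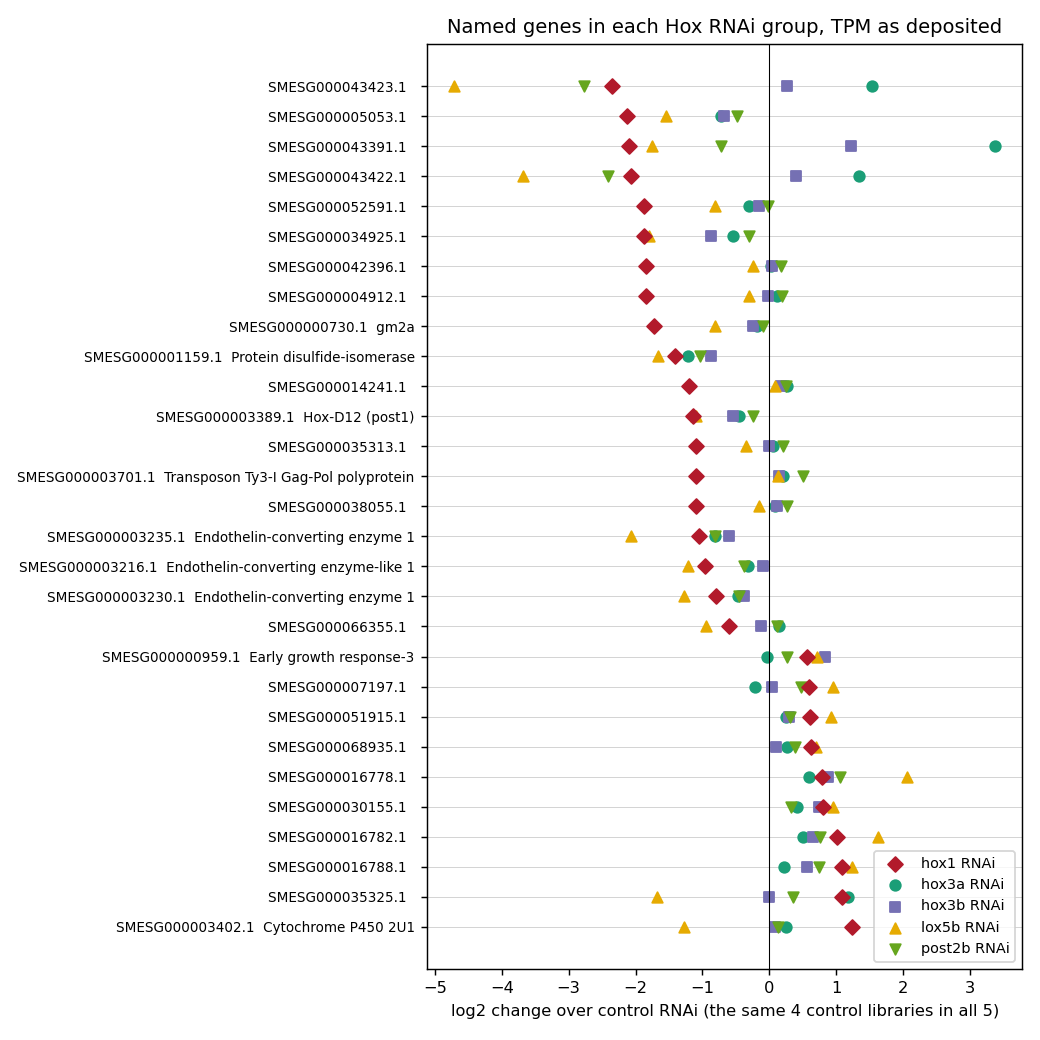
The log2 change over control RNAi (horizontal axis, TPM as deposited) of 29 named genes is plotted for each of the 5 Hox RNAi groups, which share the same 4 control libraries. *gm2a* lies at -1.73 for *hox1* RNAi and -0.81 for *lox5b* RNAi, SMESG000003235.1 (endothelin-converting enzyme 1) at -1.05 and -2.07, and cytochrome P450 2U1 is at 1.23 for *hox1* and -1.28 for *lox5b* RNAi.

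Few rises were particular to *hox1* RNAi. Of the 44 risen genes 3 were higher in *hox1* RNAi than in control RNAi and in each other Hox RNAi group on both scales (limma with Benjamini-Hochberg adjustment), cytochrome P450 2U1, SMESG000016757.1 and SMESG000025482.1, beside 0.19% of all tested genes as deposited and 0.0524% after rescaling for the 4 Hox RNAi groups alone. Cytochrome P450 2U1 (SMESG000003402.1) averaged 129.7 ± 17.5 TPM in *hox1* RNAi, 67.7 TPM in *hox3a*, 57.9 TPM in *hox3b*, 22.9 TPM in *lox5b* and 61.7 TPM in *post2b* RNAi, against 57 ± 18 TPM in control RNAi (SD over 4 libraries each). SMESG000016757.1 averaged 30.2 ± 7.42 TPM after *hox1* RNAi and 19.6 ± 3.27 TPM after control RNAi, and SMESG000025482.1 averaged 33.7 ± 3.54 TPM after *hox1* RNAi and 21 ± 6.61 TPM after control RNAi (SD over 4 libraries each). In the opposite direction, 12 of the 44 risen genes stayed below their *lox5b* RNAi level, beside 7.98% of all tested genes, among them SMESG000016778.1 and SMESG000016782.1.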

How the data were processed

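Whole-animal RNA was sequenced by the authors as stranded mRNA libraries, demultiplexed (bcl2fastq 2.20), placed on the smed_dd_g4 assembly by STAR and counted over the Smes_hv_v1 gene models. The values used are TPM as deposited by the authors, and the tool that made TPM is not given in the sources used here. Whole reads were recovered from ratios between libraries for all 20190 genes above 0 (tolerance 0.001 reads, up to a common factor per gene, which cannot be seen for 723 genes above 0 in 1 library). They gave depth and an alternative test.

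log2(TPM + 0.5) of all 24 libraries entered 1 limma model (limma 3.58.1, R 4.3.3; term for RNAi group, eBayes with intensity trend). Benjamini-Hochberg adjustment of the two-sided p-values covered 15253 genes. Fold changes on this scale understate changes of low genes. Python 3 with scipy gave the exact permutation tests. Named were *gm2a*; called genes with a product name; among genes called on both scales with a mean of at least 1 TPM and no overlap, the 8 largest falls and 6 largest rises; the 4 most abundant fallen and 3 most abundant risen genes; and Hox genes with an ID. Members, lists and rules were chosen with earlier results of these data known. Lists were too small and partial for more than counts. The calling step was tested on simulated data. Alternatives were pseudocounts, filters, cutoffs, scale factors, fewer libraries in the model, no trend, a replicate block, each library left out and, chosen after seeing the data, voom on the recovered reads. No genome was used.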

Additional observations from a re-analysis of the deposited data

Results flagged for a closer look

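2 of 72 groups of 4 libraries held a value far from the other 3 by Dixon's test at the 95% level, where chance alone gives about 3.6. For *post1* (SMESG000003389.1), *hox1* RNAi replicate 2 had 1.03 TPM, while the other 3 *hox1* RNAi libraries had 0.139, 0.149 and 0 TPM. For SMESG000034925.1, *hox1* RNAi replicate 3 had 1.93 TPM, while the other 3 had 0.561, 0.595 and 0.495 TPM. The causes were not tested.

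Of the genes named by rule, 3 changed past both cutoffs in opposite directions in *hox1* RNAi and another Hox RNAi group, which share the control libraries, and the groups differed directly (limma with Benjamini-Hochberg adjustment). Cytochrome P450 2U1 (SMESG000003402.1) was at 1.23 in *hox1* RNAi and -1.28 in *lox5b* RNAi on the log2 scale over control RNAi, a direct difference of 2.51 (adjusted p = 9.01e-08). SMESG000035325.1 was at 1.09 in *hox1* RNAi and -1.68 in *lox5b* RNAi, a direct difference of 2.77 (adjusted p = 1.13e-07). This gene was also at 1.17 in *hox3a* RNAi, which did not differ from *hox1* RNAi (limma, Benjamini-Hochberg adjusted p = 0.873), at 0.35 in *post2b* RNAi and at -0.01 in *hox3b* RNAi. SMESG000043391.1 was at -2.10 in *hox1* RNAi and 3.38 in *hox3a* RNAi, a direct difference of -5.48 (adjusted p = 2.86e-09). Under the 1.5-fold cutoff on the other side, the Gag-Pol gene SMESG000003701.1 was at -1.09 in *hox1* RNAi and 0.51 in *post2b* RNAi (direct difference -1.61). Of the genes named after their values were seen, SMESG000016757.1 was at 0.60 in *hox1* RNAi and -0.80 in *lox5b* RNAi, SMESG000025482.1 at 0.71 in *hox1* RNAi and -0.85 in *lox5b* RNAi, and SMESG000043411.1 at -1.37 in *hox1* RNAi and 3.14 in *hox3a* RNAi.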

How the results depend on the processing

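No called gene was called in the other direction under any alternative run. As deposited, 240 genes fell and 44 rose; with an adjusted p under 0.5, the cutoff that the study's methods print, 447 fell and 81 rose, with a 2-fold cutoff 124 and 4, and with no fold cutoff 477 and 350. After rescaling, 206 fell and 62 rose, and the same 3 settings gave 366 and 111, 107 and 4, and 393 and 529. Leaving out each library in turn gave 152 to 395 fallen and 19 to 60 risen genes as deposited, and 138 to 276 fallen and 24 to 104 risen genes after rescaling. The difference in genes detected per library ranged from -569.9 to -459.6 without 1 library, where 3 against 4 libraries cannot pass 0.05. It was -442.0, -280.0 and -223.0 at TPM of at least 0.1, 0.5 and 1. Replicate numbers here follow the order of the running numbers in the library names within each group. The sources used here give no pairing of libraries between groups. For same-numbered *hox1* RNAi and control RNAi libraries the correlations of deviations were 0.221, 0.0303, 0.0350 and -0.0054. The value for *hox1* RNAi and control RNAi replicates 1 was the highest of all pairs, and pairs with different numbers ranged from -0.146 to 0.0825. With the replicate block 234 genes fell and 44 rose as deposited, and 193 fell and 63 rose after rescaling. voom on the recovered reads, chosen after seeing the data, called 292 fallen and 56 risen genes with library totals, 231 and 44 of them among the 240 and 44, and 245 and 75 with rescaled library sizes. Other pseudocounts, filters, scale factors, a model of only the 8 libraries and no trend kept each count within 1.5-fold. Calls of named genes were lost in 59 of 629 gene and setting pairs, mostly genes near 1.5-fold or with few reads.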

Other observations

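The table also holds 5 mitochondrial gene models. Their summed level, looked at after other values were seen, was 363, 393, 390 and 355 TPM in *hox1* RNAi, against 265, 277, 288 and 287 TPM in control RNAi, with no overlap (exact two-sided permutation test, p = 0.0286, the smallest that 4 against 4 allows). Of the 4 models tested, 0 were called on either scale, and *lox5b* RNAi spanned 277 to 539.8 TPM. What sets this level in libraries of selected mRNA was not tested.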
